A study of Mus musculus with 10 samples.

Results

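The regions described here were open chromatin regions of mouse haematopoietic stem and progenitor cells (HSPCs) that carried a peak in both Npm1c libraries and in none of the 6 libraries of the other genotypes. Peaks on chromosomes 1 to 19 and X of 8 lists were merged into 103446 regions, with 1 shared bp as the least overlap. Of these, 2465 met the rule and are called Npm1c-only regions below. They make up 2.38% of all regions and 4.45% of the 55388 regions called in both Npm1c libraries. The regions were chosen by the presence and absence of peaks in these same 8 libraries, so neither is a finding, and no test was made on them.

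The assay was ATAC-seq, which uses Tn5 transposase to cut and tag open DNA, and the samples were bone marrow cells depleted of lineage-positive cells. All mice were C57BL/6, with 2 biological replicates per genotype and ages not given in the labels. The genotypes were wild type (WT), Npm1flox-cA/+;Mx1-Cre+ (Npm1c), Flt3ITD/+ (Flt3-ITD) and Npm1flox-cA/+;Flt3ITD/+;Mx1-Cre+ (the double mutant, DM). Cre under the Mx1 promoter recombines the Npm1 allele in interferon-responsive cells, and the labels give it to Npm1c and DM only, so the Npm1c allele and Mx1-Cre cannot be told apart in these comparisons. The cells are a mixture of stem cells and progenitors of several lineages, and in such bulk samples more cells of a type and more open chromatin per cell cannot be told apart. WT neutrophils were not analysed here.

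Npm1 encodes nucleophosmin, a nucleolar chaperone of ribosomal proteins and histones. The leukaemic mutation adds a nuclear export signal, so that the protein, called NPM1c, moves to the cytoplasm. In acute myeloid leukaemia it is often found together with an internal tandem duplication of the receptor kinase FLT3 (FLT3-ITD), and HOXA and MEIS1 genes are then typically expressed. An ATAC-seq peak marks DNA that is free of a tightly bound nucleosome, such as a promoter or an enhancer.

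Few Npm1c-only regions lay at promoters. RefSeq promoter windows of GRCm38.p6, from 250 bases before to 50 bases after a gene's start, were overlapped by 21 Npm1c-only regions, or 0.852%, against 11.3% of all regions and 18.96% of the other regions of both Npm1c libraries. The sequences below are the upstream bases that the region covered at 5 of these starts, shown because the base composition and motifs of these promoters are described next. Capitals mark the letters of any searched motif, and each sequence ends at the base before the start. Ifi44, an interferon-induced gene, has its region at chr3:151749388-151750062, with peaks of 675 and 575 bp in Npm1c replicates 1 and 2. Lpar4, a receptor for lysophosphatidic acid, has its region at chrX:106920351-106920889, with peaks of 427 and 539 bp. Txk, a Tec family tyrosine kinase of lymphoid cells, has its region at chr5:72736305-72736735, with peaks of 334 and 346 bp. Alas2, which encodes the erythroid enzyme of the committed step of haem synthesis, has its region at chrX:150547242-150547537, with peaks of 257 and 200 bp. Tnfrsf9, the T cell costimulatory receptor 4-1BB, has its region at chr4:150927786-150928103, with peaks of 208 and 282 bp. Alas2 and Tnfrsf9 were chosen after their values were seen.
Ifi44: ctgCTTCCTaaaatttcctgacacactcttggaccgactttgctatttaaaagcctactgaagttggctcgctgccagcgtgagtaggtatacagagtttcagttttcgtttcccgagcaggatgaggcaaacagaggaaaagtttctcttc
Lpar4: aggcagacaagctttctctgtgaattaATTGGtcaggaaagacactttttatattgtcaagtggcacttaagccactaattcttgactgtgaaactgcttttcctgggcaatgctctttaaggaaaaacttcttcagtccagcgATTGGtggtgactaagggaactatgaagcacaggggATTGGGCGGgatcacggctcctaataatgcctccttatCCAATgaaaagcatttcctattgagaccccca
Txk: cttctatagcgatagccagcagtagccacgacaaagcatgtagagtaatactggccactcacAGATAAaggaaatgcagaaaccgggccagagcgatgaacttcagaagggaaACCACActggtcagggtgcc
Alas2: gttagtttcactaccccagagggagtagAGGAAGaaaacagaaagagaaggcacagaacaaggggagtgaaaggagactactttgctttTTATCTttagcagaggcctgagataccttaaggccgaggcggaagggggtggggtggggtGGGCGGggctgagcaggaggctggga
Tnfrsf9: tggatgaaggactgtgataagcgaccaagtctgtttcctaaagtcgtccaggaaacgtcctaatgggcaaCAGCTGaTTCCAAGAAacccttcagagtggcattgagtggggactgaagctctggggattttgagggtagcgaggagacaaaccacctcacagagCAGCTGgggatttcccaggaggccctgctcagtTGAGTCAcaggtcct

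The covered sequence of Alas2 held 1 GATA motif (AGATAA), 1 ETS motif (AGGAAG) and 1 GC box (GGGCGG). That of Txk held 1 GATA and 1 RUNX motif (TGTGGT), and that of Ifi44 held 1 ETS motif. Lpar4 showed 4 copies of CCAAT and 1 GC box, which overlaps 1 of the copies, over 250 bases. Tnfrsf9 showed 1 AP-1 motif (TGANTCA), 1 STAT motif (TTCNNNGAA) and 2 E-boxes (CAGCTG). Both strands were searched, so a motif also appears as its reverse complement.

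Over all 21 windows and 300 bases, the RUNX motif was found in 7 windows (33.3%) and in 16.6% of all 32619 windows. ETS was found in 9 (42.9% against 35.2%), GATA in 4 (19.05% against 11.2%) and STAT in 5 (23.8% against 8.34%). The MEIS motif TGACAG was found in 5 (23.8% against 18.9%) and CCAAT in 7 (33.3% against 37.6%). AP-1 was found in 1 window (4.76% against 7.85%), the HOX/PBX motif TGATTNAT in 1 (4.76% against 3.24%) and the E-box in 4 (19.05% against 16.4%). The GC box stood in 4 windows (19.05%), in 35.9% of all windows and in 62.1% of the windows overlapped by any region. No window held the letters searched for C/EBP (TTGCNNCAA), the heat shock element, the IRF element, the CTCF core (CCACNAGG) or CRE (TGACGTCA). All windows held these in 2.09%, 0.607%, 3.46%, 5.02% and 1.80% of cases, in that order. These are exact letter matches in 21 windows and not measured binding sites, and a site that departs from the letters was not counted.

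The promoter windows of the Npm1c-only regions were poorer in G and C than other open promoters. Their mean GC content was 48.7% over 21 windows, against 61.2% over the 13420 windows overlapped by other regions of both Npm1c libraries. It was 53.9% over all 32619 windows and 60.3% over the 125 windows of regions called only in both WT libraries. Windows of the regions called only in both DM libraries stood between, at 53.3% over 113 windows. In the single libraries the mean over open windows lay between 61.1% and 61.7%. The GC content of the regions themselves was not analysed here, since no genome sequence of this build was used.

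The 8 lists held between 43825 and 80916 peaks, and the Npm1c lists lay within this range at 62782 and 68676. WT replicate 1 had the longest list and Flt3-ITD replicate 1 the shortest. Read depth was not known, and its part in the calls was not tested. Of the HSPC markers with a promoter window, Kit, Cd34, Gata2 and Runx1 were called at the promoter in all 8 libraries. Promoters of the T cell markers Cd3d, Cd3e and Cd3g, the B cell marker Cd79a and the NK cell markers Ncr1 and Klrb1c were called in none. Of 3 neutrophil markers (Ltf, Camp and Ly6g), 2 were called in WT replicate 1, 1 in each Npm1c and each DM library, and 0 in the other libraries. The erythroid marker with a window, Alas2, is itself an Npm1c-only region and so gives no check. The stromal marker with a window, Cxcl12, was called in WT replicate 1 alone. Markers without a window, such as Lmo2, Ms4a1, Slc4a1, Cdh5 and Col1a1, were not assessed. The part of these cell types in the results below was not tested.

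The same rule gave 3126 regions for WT (3.02% of all regions), 216 for Flt3-ITD (0.209%) and 5308 for DM (5.13%). As shares of the regions called in both libraries of the genotype, these were 5.4%, 0.566% and 10.9%. Leaving out a library loosens the rule, so a rise in the Npm1c count was built in, and only the size of the rise differed between libraries. The count rose to 4266 without WT replicate 1, to 5781 without Npm1c replicate 1 and to 3955 without Npm1c replicate 2. Without any one of the other 5 libraries it lay between 2466 and 3126.

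The regions just outside the rule were mostly shared with WT. Of the 2562 regions called in both Npm1c libraries and 1 other, the extra call was in WT replicate 1 for 1769 (69.0%) and in WT replicate 2 for 656 (25.6%). It was in a DM library for 43 and 89 regions, and in a Flt3-ITD library for 1 and 4. Where the extra call was in WT replicate 1, its peak there had a median width of 273 bp, at percentile 16.8 of the widths in that list. Regions called in both Npm1c and both WT libraries and in no other numbered 8665, while 161 were called in both Npm1c and both DM libraries and in no other. Another 1142 regions were called in Npm1c replicate 1 alone and 3084 in Npm1c replicate 2 alone.

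Npm1c-only peaks were narrow. The lists give positions only, so width is the single measure of a peak's size, and the narrowest peaks listed were 200 bp. The median Npm1c-only peak was 284 bp wide in Npm1c replicate 1 and 316 bp in replicate 2, at percentiles 20.1 and 27.3 of these lists. Peaks of the other regions called in both libraries had medians of 445 and 473 bp. Widths under 300 bp were found for 56.1% and 43.3% of the Npm1c-only peaks and for 18.6% and 13.5% of the others. Only 11 and 17 Npm1c-only peaks reached 1000 bp (0.441% and 0.682%), against 17.8% and 19.4% of the others. Peaks just outside the rule, with 1 extra call, had medians of 300 and 333 bp, and peaks called in 1 Npm1c library alone had medians of 235 and 246 bp. The width of Npm1c-only peaks thus lay between these classes and nearer to the regions just outside the rule. Narrow widths were not particular to Npm1c. The median Npm1c-only region was 352 bp wide, against 332 bp for regions called only in both WT libraries. It was 347 bp for those called only in both DM libraries and 435 bp for all regions.

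The 2 Npm1c libraries matched less closely at Npm1c-only regions than at other regions they share. Of the Npm1c-only regions, 2416 held 1 peak of each library, and in 2366 of these (97.9%) the peaks shared at least 50% of the shorter one, against 99.8% for other regions of both Npm1c libraries. The median shared part was 74.3% of the bases covered by either peak, against 86.4% for the others. Across these regions the rank correlation of the 2 widths was 0.429, against 0.909 for the others. Regions are not independent replicates, and the narrow range of Npm1c-only widths enters this value, so it is a description.

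Npm1c-only regions lay far from gene starts. Genes and their ends came from a RefSeq table of GRCm38.p6, and distances were taken from the middle of the region. Within 1 kb of a gene end lay 120 regions, or 4.87% (exact Clopper-Pearson 95% interval 4.05% to 5.79%), against 21.0% of the other regions of both Npm1c libraries and 14.6% of all regions. The same share was 9.79% for WT-only regions and 4.58% for DM-only regions. Within 1 kb of a transcription start lay 3.59%, against 20.7% of the others and 13.8% of all. The median distance to a start was 21114 bp, against 11849 bp and 14022 bp. For DM-only regions this share and distance were 4.36% and 18652.5 bp, and for WT-only regions 6.35% and 14440 bp. Intervals cover counting error only.

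A position inside a gene was about as common as in the other sets. Of the Npm1c-only regions 60.2% (1485 regions, interval 58.3% to 62.2%) had their middle inside a gene, against 61.5% of the others and 59.6% of all regions. WT-only regions stood at 62.5% and DM-only regions at 51.6%. The host genes had a median length of 87.7 kb, against 61.1 kb for the others, 67.9 kb for all regions, 67.6 kb for WT-only and 91.6 kb for DM-only regions. More than 100 kb from any gene lay 264 regions (10.7%), against 4.39% of the others, 5.2% of all, 2.53% of WT-only and 9.17% of DM-only regions. The table gives no exons, so exonic and intronic positions were not told apart.

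The regions were spread unevenly over the chromosomes. Chromosome 1 held 311 of them, or 12.6%, against 7.01% of all regions, 5.47% of WT-only and 5.18% of DM-only regions. Chromosome 3 held 8.28% (5.22% of all regions), chromosome 6 held 8.24% (5.77%) and chromosome X held 4.10% (2.15%). Chromosome 11 held 3.25% (6.91%), chromosome 15 held 1.95% (4.07%) and chromosome 19 held 0.852% (2.95%). The whole Npm1c lists leaned the same way. Of their peaks 7.64% and 7.74% lay on chromosome 1, against 6.92% and 6.94% in WT, 6.30% and 6.25% in Flt3-ITD, with 6.22% and 6.44% in DM. The 2 Npm1c libraries were thus the highest of the 8, and the same order held on chromosome X, where they had 2.43% and 2.50% and the other 6 had 1.51% to 2.09%. Promoter windows had a mean GC content of 55.9% on chromosome 11 and 54.6% on chromosome 19. On chromosomes 1 and X it was 53.5% and 51.8%. Chromosome 7 went the other way, with 52.6% and 3.73% of the Npm1c-only regions (6.18% of all regions). Across the 19 chromosomes with promoter windows, the share of regions of both Npm1c libraries that were Npm1c-only had a Pearson r of -0.67 (Spearman rho -0.65) with the mean GC content of the windows. The points share the libraries and differ in size, so this is a description, and no cause of it was tested. The chromosome 1 share was 9.24% with lists of equal length.

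**Figure D1:**
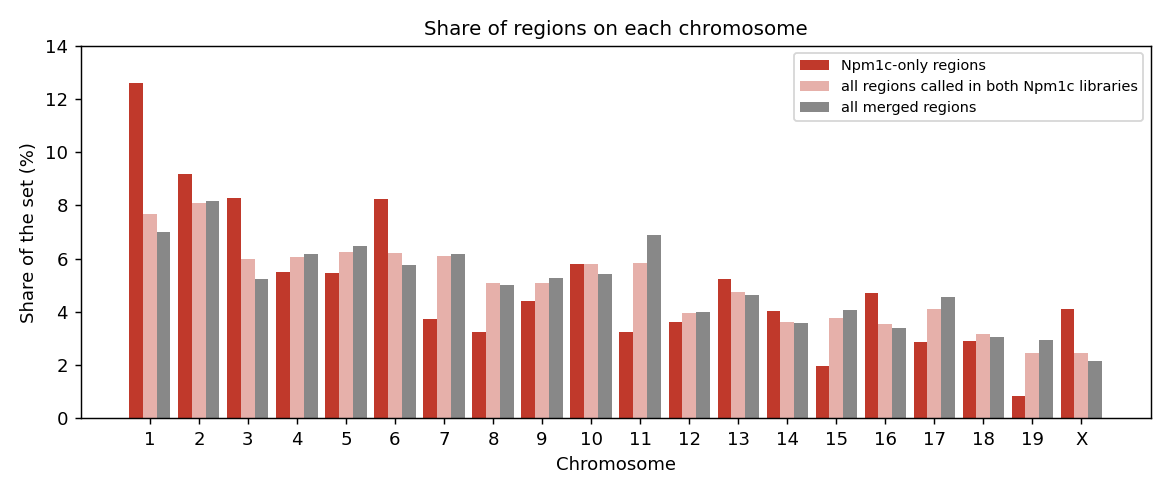
Share of Npm1c-only regions, of all regions called in both Npm1c libraries and of all merged regions (y axis, percent of the set) on each chromosome (x axis). Chromosome 1 held 12.6% of the Npm1c-only regions and 7.01% of all merged regions, while chromosome 19 held 0.852% and 2.95%.

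The surroundings of the Npm1c-only regions were measured apart from the regions themselves. Within 10 kb on either side, peaks of the Npm1c libraries covered on average 1622 and 1720 bp. Peaks of WT covered 1295 and 1135 bp, those of Flt3-ITD 553 and 691 bp, and those of DM 618 and 647 bp. Around the other regions of both Npm1c libraries the same means were 1148 and 1238 bp in Npm1c, 1395 and 1112 bp in WT, 667 and 829 bp in Flt3-ITD, and 777 and 856 bp in DM. As the ratio of the former to the latter, the Npm1c libraries had 1.41 and 1.39, WT 0.928 and 1.02, Flt3-ITD 0.829 and 0.833, and DM 0.796 and 0.756. The replicates of a genotype lay close together, and the 4 genotypes did not overlap in this ratio. With the peaks of all Npm1c-only regions left out of the flanks, the Npm1c ratios were 1.35 and 1.34, and those of the other 6 libraries were the same by construction. These flanks come from the same lists as the rule, so no test was made.

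Npm1c-only regions had fewer neighbouring peaks of the other genotypes than other Npm1c regions had. A WT peak lay within 10 kb of 66.2% of them in replicate 1 and 63.9% in replicate 2, while a Flt3-ITD peak did so for 46.1% and 51.2% and a DM peak for 48.6% and 49.5%. Around the other regions of both Npm1c libraries these shares were 79.3% and 73.0% for WT, 58.1% and 63.7% for Flt3-ITD, and 64.2% and 67.1% for DM. The nearest peak was at a median of 3243 and 3872 bp in WT, 12889 and 9354 bp in Flt3-ITD, and 10789 and 10277 bp in DM. For the other regions it was at 2875 and 3880 bp in WT, 7157 and 5610 bp in Flt3-ITD, and 5545 and 4948 bp in DM. WT replicate 2 was thus about as near to both kinds of region, and the Flt3-ITD and DM peaks were farther from the Npm1c-only regions. The WT lists include the longest one, and the Flt3-ITD lists are the shortest. The lists of DM replicate 2 and WT replicate 2 were of similar length, at 63133 and 63908 peaks. These lists covered 33.9 and 39.8 Mb. Their nearest peaks stood at medians of 10277 and 3872 bp from the Npm1c-only regions, and 4948 and 3880 bp from the other regions. The part of list length and covered bases in these distances was not tested. Within 1 kb of 810 regions (32.9%) stood a peak of at least 1 of the 6 other libraries, against 30.9% of the other regions of both Npm1c libraries. None stood within 10 kb of 765 (31.0%), against 16.7% of the others.

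**Figure D2:**
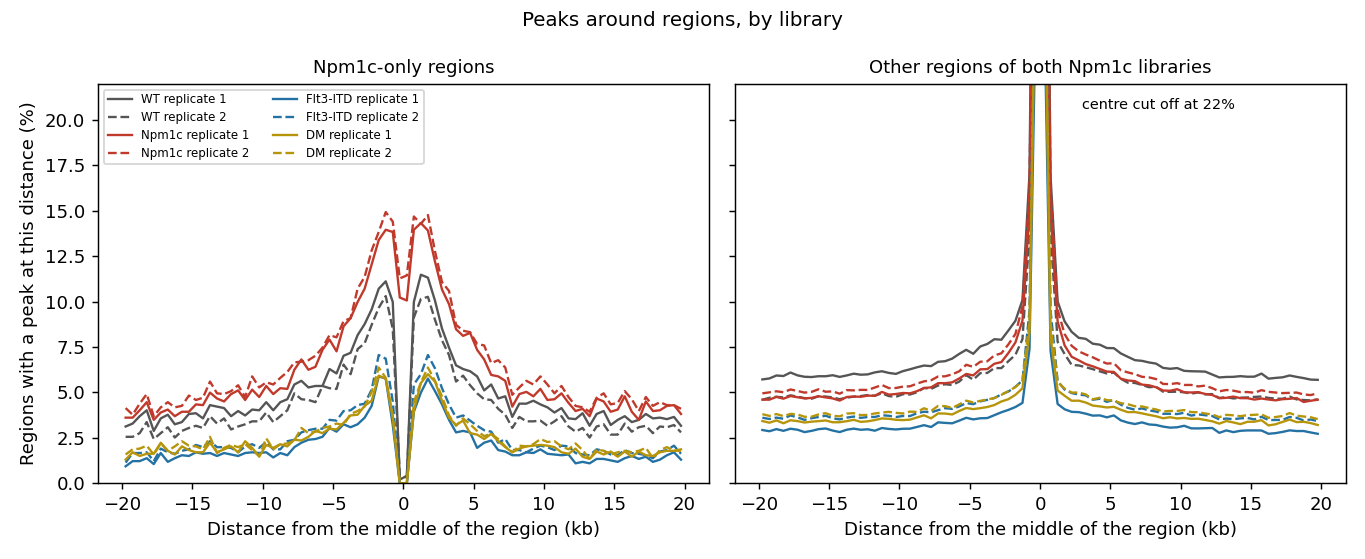
Percent of regions with a peak of each library (y axis) at points 500 bp apart, by distance from the middle of the region (x axis, kb), for the Npm1c-only members on the left and other regions of both Npm1c libraries on the right; the points nearest the middle lie 0.25 kb off it, past the edge of most Npm1c-only peaks. At 1.25 kb to the right of the members, peaks were found for 14.3% and 14.3% in Npm1c, 11.5% and 10.1% in WT, 4.99% and 6.00% in Flt3-ITD, with 5.52% and 5.56% in DM.

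Of the 5 regions farthest from any peak of the other 6 libraries, the most distant, chr8:100851059-100851434, had its nearest such peak 3.18e+06 bp away and peaks of 353 and 375 bp in the Npm1c libraries. The next were chr14:90433279-90433560 (2.87e+06 bp away) and chr14:109874239-109874562 (1.80e+06 bp). The remaining ones were chr8:102780936-102781199, inside Cdh11, a cadherin of mesenchymal cells, and chr11:15096801-15097269. Apart from the one in Cdh11, these regions had no coding gene within 100 kb. These peaks were 203 to 469 bp wide.

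Of the Npm1c-only regions, 2201 were assigned to 1587 genes, by position inside the gene or by the nearest gene end within 100 kb. Most of these genes (1182) had 1 region, 266 had 2 and 139 had 3 or more. The count of 139 was 321 without WT replicate 1, 502 without Npm1c replicate 1 and 293 without Npm1c replicate 2. It was 76 when only the wider peaks of each list were used, and 72 when peaks closer than 500 bp were merged. Long genes have more regions of any kind, so the number for each gene is given beside all its regions.

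Lsamp, a cell adhesion molecule of neurons on chromosome 16, had the most, with 8 Npm1c-only regions among 16. All 8 lay inside the gene, between position 41692493 and position 42180308. The 2 Npm1c libraries had 13 and 16 of its regions called, WT 5 and 5, Flt3-ITD 1 and 2, and DM 3 and 4. Thsd7b, a thrombospondin domain protein on chromosome 1, had 7 among 29. Its regions were called 25 and 26 times in Npm1c, 13 and 14 times in WT, 1 and 3 times in Flt3-ITD, and not at all in DM. Samsn1, an adaptor that restrains B cell and myeloid signalling, had 7 among 34, with 30 and 30 calls in Npm1c, 21 and 14 in WT, 6 and 6 in Flt3-ITD, with 13 and 15 in DM. The Npm1c counts hold the Npm1c-only regions by construction. Without them the Npm1c libraries had 5 and 8 regions called at Lsamp, 18 and 19 at Thsd7b, and 23 and 23 at Samsn1. On that count Npm1c replicate 1 equalled WT at Lsamp, while both Npm1c libraries stayed above the other 6 at Thsd7b and Samsn1.

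Lrba and Plcb1 each had 6 among 25. Lrba, a protein of vesicle traffic, was called in 21 and 23 regions in Npm1c, 17 and 12 in WT, 5 and 6 in Flt3-ITD, with 7 and 6 in DM. Plcb1, a phospholipase C, was called in 23 and 25, 17 and 13, 3 and 5, and 5 and 5 regions in the same order. Of the genes with 5, those with the fewest regions in all were Gabarapl1 (10), Macc1 (10), Hsph1 (16) and Nrxn3 (19), followed by Eif4e (20). Gabarapl1 encodes an autophagy protein and had 8 and 9 regions called in Npm1c, 3 and 2 in WT, and 1 in each of the other 4 libraries. Eif4e encodes the cap-binding protein of translation and had 17 and 15 called in Npm1c, 9 and 9 in WT, 1 and 2 in Flt3-ITD, with 2 and 3 in DM. Macc1 had 9 and 9 called in Npm1c, 3 and 3 in WT, 1 and 1 in Flt3-ITD, with 2 and 4 in DM. Without the Npm1c-only regions, the Npm1c counts were 15 and 17 at Lrba, 17 and 19 at Plcb1, 3 and 4 at Gabarapl1, 12 and 10 at Eif4e, and 4 and 4 at Macc1. The 2 Npm1c libraries then no longer both exceeded WT replicate 1 at Lrba, Plcb1 and Gabarapl1 or DM replicate 2 at Macc1, and lay above the other 6 libraries at Eif4e. With the wider peaks alone, the number of Npm1c-only regions was 5 at Lsamp, 3 at Thsd7b, 3 at Samsn1, 2 at Lrba, 5 at Plcb1, 1 at Gabarapl1, 2 at Macc1, 1 at Nrxn3 and 3 at Eif4e.

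**Figure D3:**
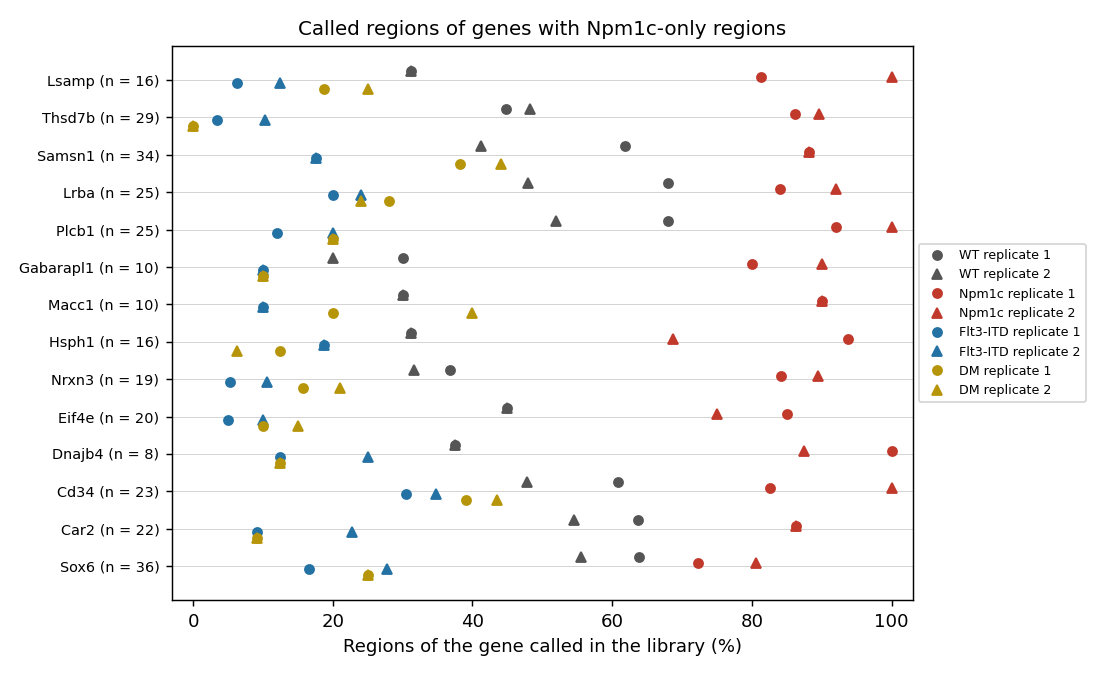
Percent of the regions of each gene that were called in each library (x axis), for 14 genes with Npm1c-only regions (y axis, n being all regions of the gene). Points are single libraries, and the Npm1c points are highest in every gene shown, which the rule favours, since the counts hold the Npm1c-only regions.

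Some regions stood close together. Windows of 20 kb with 5 Npm1c-only regions were found at 4 places, at Btg1, Samsn1, Hsph1 and Gabarapl1, and 8 windows held 4. Btg1, an antiproliferative gene, had 5 among 21 regions, between position 96621564 and position 96633808 on chromosome 10. Its regions were called 14 and 15 times in Npm1c, 10 and 8 times in WT, 2 and 3 times in Flt3-ITD, with 6 and 8 times in DM. Of the Npm1c calls, 5 in each library are the Npm1c-only regions, and without them Npm1c did not exceed WT replicate 1.

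Heat shock and chaperone genes carried 17 Npm1c-only regions among 154, or 11.04%, beside 2.38% of all regions. They belonged to 7 of the list's 34 genes. All gene lists used here were made with earlier results of these data known, so their counts are not independent evidence. Hsph1, a nucleotide exchange factor for HSP70, had 5, and Dnajb4, an HSP40 co-chaperone, had 4. The mitochondrial chaperonin Hspd1, the HSP90 cofactor Chordc1 and the HSP40 gene Dnajb1 had 2 each, and Hsp90aa1 and Dnaja1 had 1 each. The count was 8 with lists of equal length, 8 with the wider peaks alone, 7 with peaks merged over 500 bp, 27 without Npm1c replicate 1 and 34 without Npm1c replicate 2. Over the whole list, 114 and 102 of the 154 regions were called in Npm1c, 104 and 90 in WT, 60 and 73 in Flt3-ITD, with 67 and 65 in DM. Without the 17, the Npm1c libraries had 97 and 85, between or below the WT values.

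The widest Npm1c-only region of all was at Hsph1. It spans chr5:149614659-149619378 over the downstream end of the gene, with peaks of 4720 bp in Npm1c replicate 1 and 2313 bp in replicate 2. A second wide one, chr5:149626361-149628009 inside the gene, had peaks of 1516 and 687 bp. Peaks covered 78.1% and 35.8% of the Hsph1 body in Npm1c, 10.9% and 11.7% in WT, 5.52% and 6.43% in Flt3-ITD, with 4.39% and 4.39% in DM. Without the Npm1c-only regions, the Npm1c values were 33.6% and 18.6%, still above the other 6 libraries, and the 2 Npm1c libraries differed from each other more than the other 6 did among themselves. The start of Hsph1 was called in all 8 libraries. The count of 5 at Hsph1 was 11 and 12 without Npm1c replicates 1 and 2, 3 with the wider peaks and 1 with peaks merged over 500 bp.

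Dnajb4 showed a like layout. Its widest region, chr3:152182790-152184758, had peaks of 1969 and 1033 bp and lay in the downstream part of the gene, 10071 bp from the nearest start in the promoter table. Peaks covered 34.9% and 31.2% of the gene in Npm1c, 17.5% and 16.2% in WT, 9.70% and 11.4% in Flt3-ITD, with 7.48% and 5.59% in DM. Without the Npm1c-only regions, the Npm1c values were 25.6% and 23.8%. The 4 regions at Dnajb4 became 1 with lists of equal length, with the wider peaks and with merging over 500 bp. Dnajb1 was covered to 78.6% and 49.97% in Npm1c, 38.0% and 32.2% in WT, 17.1% and 23.8% in Flt3-ITD, with 26.1% and 30.1% in DM, and its Npm1c-only regions lay outside the body. Hspd1 was covered to 23.6% and 23.6% in Npm1c, or 19.5% and 18.1% without the Npm1c-only regions, and to between 10.45% and 15.7% in the other 6 libraries. Hsp90aa1, with its Npm1c-only region left out, was covered to 23.6% and 22.4% in Npm1c. It stood at 23.7% in Flt3-ITD replicate 2 and 25.9% in DM replicate 2. Chordc1 was likewise at 6.93% and 7.23% in Npm1c and 7.05% in WT replicate 2. Dnaja1 was at 16.2% and 13.6% in Npm1c and 12.9% and 12.5% in WT. Genes of the list without Npm1c-only regions went both ways. Hspa8 was covered to 24.9% and 22.3% in Npm1c and 26.2% and 27.7% in WT. For Bag3 these values were 8.28% and 7.84%, and 9.86% and 9.13%. Hspe1 was higher in Npm1c, at 72.2% and 55.4% against 40.6% and 50.9%, as was Ahsa1, at 22.8% and 22.7% against 19.6% and 19.2%.

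Atf3, a stress-induced transcription factor of the AP-1 list, had 3 Npm1c-only regions among 18. Its body was covered to 44.4% and 28.4% in Npm1c, or 26.7% and 22.9% without these regions, and to between 7.90% and 12.4% in the other 6 libraries. The AP-1 and immediate early list had 5 regions among 197 (2.54%), near the 2.38% of all regions, at Atf3 and Klf6.

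**Figure D4:**
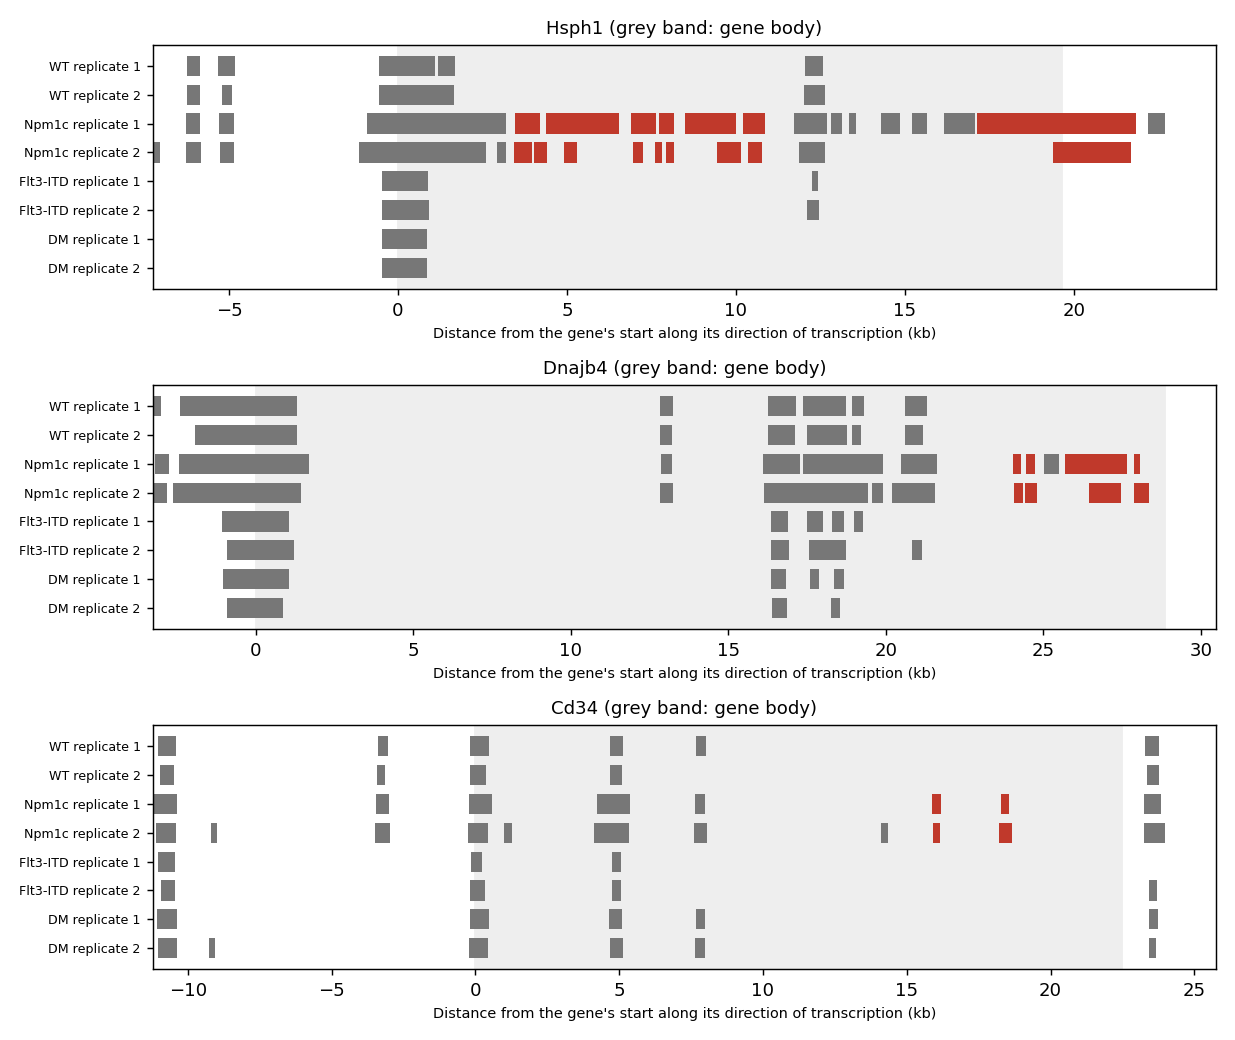
Peaks of the 8 libraries (y axis) along Hsph1, Dnajb4 and Cd34, by distance from the start of the gene in its direction of transcription (x axis, kb), with Npm1c-only regions in red and the gene body shaded. Peaks at the start of each gene are seen in all 8 libraries, while Npm1c peaks in red stand further into Hsph1, Dnajb4 and Cd34.

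Erythroid genes carried 14 Npm1c-only regions among 275 (5.09%). Sox6, a factor of globin switching and red cell maturation, had 4 among 36, and the carbonic anhydrases Car1 and Car2 had 3 among 9 and 3 among 22. Tal1, Hbb-bs, Nfe2 and Rhag had 1 each. Car1 had 8 and 8 regions called in Npm1c, 5 and 6 in WT, 1 and 1 in Flt3-ITD, with 1 and 0 in DM. Without the 3, Npm1c had 5 and 5, as WT replicate 1 had. Peaks covered 62.7% and 53.9% of the Car2 body in Npm1c, 34.3% and 29.9% in WT, 11.7% and 18.9% in Flt3-ITD, with 7.95% and 6.63% in DM. Without the Npm1c-only regions, Car2 was covered to 58.6% and 50.6% in Npm1c. Car2 was named for its Npm1c-only regions, and how many other genes show such an order of genotypes was not analysed here.

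Hbb-bs, an adult beta globin gene, had a region over 1 end, chr7:103825741-103826602, with peaks of 862 and 805 bp. The adult beta globin genes are near-identical copies, so reads there could be split between them by the alignment. Over the whole erythroid list 190 and 196 of 275 regions were called in Npm1c, 204 and 185 in WT, 102 and 134 in Flt3-ITD, with 90 and 86 in DM. Without the 14, Npm1c had 176 and 182, below both WT libraries and above the other 4. The 14 became 22 without WT replicate 1, 27 without either Npm1c library and 5 with merging over 500 bp. The Alas2 promoter region, printed above, was assigned by its middle to the neighbouring Apex2 and is not among the 14. The 2 regions assigned to Alas2 itself were called in both libraries of WT, Npm1c and Flt3-ITD, 1 of them in DM replicate 1 and neither in DM replicate 2. Lineage depletion is meant to remove cells late in the red cell lineage. The share of erythroid cells in each sample was not measured.

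Stem cell genes carried 14 among 391 (3.58%). Cd34, a surface marker of progenitors, had 5 among 23, all between 243 and 471 bp wide in either library. Its regions were called 19 and 23 times (14 and 18 without the 5) in Npm1c, 14 and 11 in WT, 7 and 8 in Flt3-ITD, with 9 and 10 in DM. Of the 5, chr1:194954701-194955007 and chr1:194957042-194957477 lay inside the gene, and its promoter was open in all 8 libraries. The others were 51898, 21935 and 32427 bp outside Cd34. They were nearer to another start in the promoter table, at 14314, 6268 and 4192 bp in the same order. Erg, a factor that keeps stem cells, had 2 among 40. Mecom, Tal1, Meis1, Slamf1, Cd48, Angpt1 and Hoxa9 had 1 each. Over the list 235 and 265 of 391 regions were called in Npm1c, and 303 and 235 in WT. Flt3-ITD had 150 and 174, and DM had 182 and 201. Without the 14, Npm1c had 221 and 251, both below WT replicate 1. The list's 14 became 27 and 23 without Npm1c replicates 1 and 2, and between 7 and 9 with equal lists, wider peaks and merging over 500 bp.

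The HOX cluster and its cofactors, which NPM1c leukaemias typically express, had 3 among 130 (2.31%), close to the 2.38% of all regions. They were at Hoxa9, Meis1 and Meis2, with 1 each. Without WT replicate 1 the count was 9, and without the Npm1c replicates it was 9 and 10. Over the list 67 and 73 regions were called in Npm1c, 91 and 72 in WT, 37 and 51 in Flt3-ITD, with 57 and 62 in DM.

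Interferon response genes had 5 among 94 (5.32%), 2 at the RNA sensor Ifih1 and 1 each at Ifi44, Usp18 and Trim30a. Peaks covered 4.02% and 2.34% of Ifi44 in Npm1c, and no peak was listed in its body in the other 6 libraries. Without its Npm1c-only region, coverage was 1.26% in Npm1c replicate 1, and no peak remained in replicate 2. Over the list 72 and 67 regions were called in Npm1c, 73 and 61 in WT, 36 and 38 in Flt3-ITD, with 36 and 54 in DM. Mx1 itself, whose promoter drives Cre, had 0 Npm1c-only regions, as had Npm1 and Flt3. Mx1 had 4 and 3 regions called in Npm1c, 1 and 0 in WT, 1 and 1 in Flt3-ITD, with 3 and 4 in DM. These counts rest on 4 regions in all, and how many other genes show such counts was not analysed here. Coverage of the Mx1 body overlapped between Npm1c, WT and Flt3-ITD and was highest in DM. It was 0.542% and 0.353% in Npm1c, 0.504% and 0% in WT, 0.523% and 0.359% in Flt3-ITD, with 0.592% and 0.977% in DM. Npm1 had 3 in each Npm1c and WT library and 1 in each Flt3-ITD and DM library. Flt3 had 9 to 11 in each library other than DM replicate 2, which had 16.

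Neuronal adhesion and guidance genes, best known from the nervous system, had 25 among 226 (11.1%), in 9 genes. After Lsamp came Nrxn3, a presynaptic adhesion gene, with 5 among 19, the axon guidance receptor Robo2 with 4 among 17 and the adhesion molecule Dscam with 3 among 33. Of the 226 regions, 146 and 185 were called in Npm1c, 125 and 84 in WT, 27 and 37 in Flt3-ITD, with 55 and 63 in DM. Without the 25, the Npm1c libraries had 121 and 160, and replicate 1 was then below WT replicate 1. The 25 became 47 without WT replicate 1 and 57 without Npm1c replicate 1. Like the other lists, this one was made with earlier results of these data known, so its count is not independent evidence.

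The other lists stood near or below the share of all regions. DNA methylation and Tet genes had 4 among 126 (3.17%), of which Tet2 had 2 among 23, with 17 and 20 of its regions called in Npm1c, 11 and 8 in WT, 6 and 5 in Flt3-ITD, with 15 and 14 in DM. Without the 2 at Tet2, the Npm1c libraries had 15 and 18, and replicate 1 then equalled DM replicate 1. B-lymphoid genes had 3 among 114 (2.63%), all at Bank1, a B cell scaffold. JAK-STAT and FLT3 signalling genes had 5 among 399 (1.25%). Megakaryocyte genes had 3 among 191, dendritic cell genes 3 among 223, stroma and endothelium 2 among 162, and T and NK genes 2 among 184. Mature myeloid genes had few: neutrophil granule genes 1 among 115, at Chil3, and monocyte and macrophage genes 1 among 239 (0.418%), at Zeb2. Mast cell and basophil genes had 0 among 109. Counts of 5 or fewer moved by over 1.5 times in several alternatives.

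**Figure D5:**
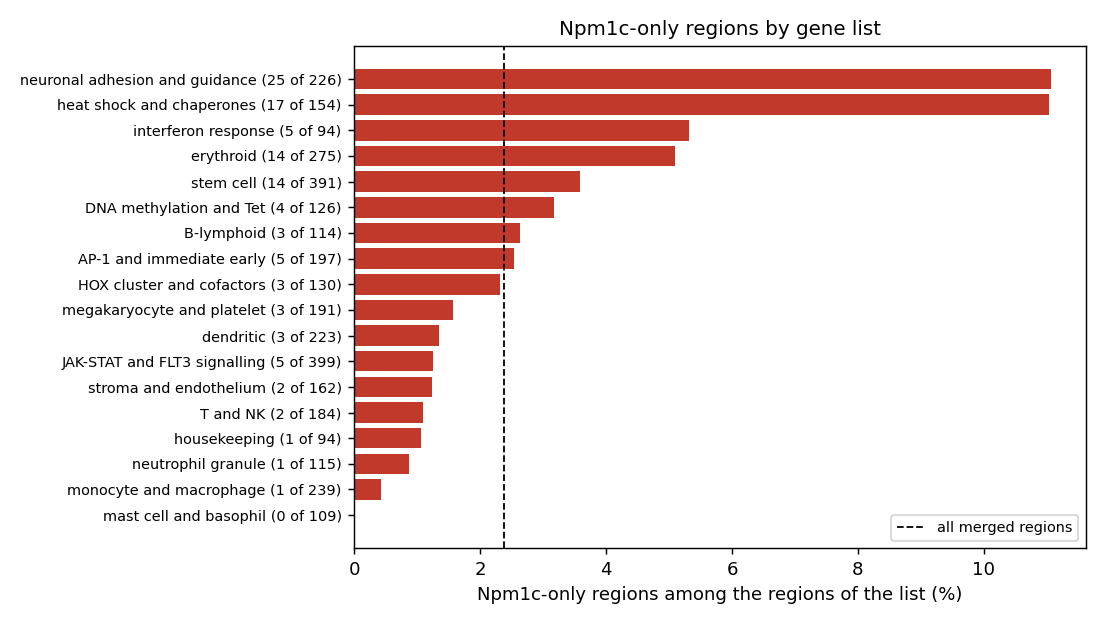
Share of Npm1c-only regions among the regions of each of 18 gene lists (x axis, percent), with the counts beside the list names on the y axis. The dashed line marks the 2.38% of all merged regions, and 2 lists, neuronal adhesion and heat shock, reach 11.1% and 11.04%.

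Among housekeeping genes 1 Npm1c-only region stood among 94, at B2m, the light chain of MHC class I. That region, chr2:122150858-122152553, had peaks of 1659 and 1363 bp, and a second one over the end of B2m, chr2:122152992-122153847, had peaks of 604 and 856 bp. Peaks covered 86.5% and 83.4% of the B2m body in Npm1c (55.7% and 56.5% without Npm1c-only regions), 47.5% and 43.8% in WT, 15.8% and 20.2% in Flt3-ITD, with 17.5% and 18.6% in DM. The promoter region of B2m was called in all 8 libraries.

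Other wide regions lay at genes of varied function. A region inside Rab3gap2, chr1:185206018-185207336, had peaks of 1249 and 1171 bp. One at chr14:73894851-73896071, with no coding gene within 100 kb, had peaks of 1056 and 1221 bp. At Rpl34, a ribosomal protein gene, chr3:130725391-130726425 had peaks of 1035 and 870 bp and lay 919 bp outside the gene. Others among the 10 widest were a second region of Hsph1 and regions at Dnajb4, Tmtc1, Phc1 and Pign. Phc1 is a Polycomb protein, and its region chr6:122317789-122318761 had peaks of 867 and 875 bp.

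One narrow region stood beside a cluster of miRNA genes. It is chr14:115044869-115045268, with peaks of 337 and 267 bp, and it lies 363 bp past the hairpin of Mir92-1 and 923 bp past that of Mir18, both of the miR-17-92 cluster. This region was singled out after its position was seen.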

How the data were processed

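ATAC-seq peak lists of 8 HSPC libraries were used, 2 for each of 4 genotypes. Groups and replicate numbers came from the sample titles. Per the submitters' processing notes, the authors aligned reads with Bowtie2 and called peaks with MACS2 on mm10. Versions, thresholds, read depth, duplicate removal and any Tn5 shift are not given in the sources used here. Lists were deposited per library, per the labels, and hold 3 columns (chromosome, start, end) with no height, q or other score, so a narrow weak peak and a missed one differ only by the caller's threshold.

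Peaks sharing at least 1 bp were merged. A region was called in a library with a peak in it. Coordinates are 1-based mm10. Gene bodies (21630 genes), promoter windows (32619, none on chromosome 18) and sequences came from RefSeq tables of GRCm38.p6. A region went to the gene holding its middle, or else to the nearest gene end within 100 kb. The 18 gene lists (421 genes) and 15 motifs were searched as fixed lists. The members, lists and motifs were chosen with earlier results of these data known. Named genes are those with most regions, the up to 4 genes of each list with most, the 10 widest regions by percentile, 6 widest at gene ends or promoters, windows of 20 kb with most regions and the 5 most distant ones. One of the widest regions and 2 marker genes are not reported here.

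With 2 libraries per genotype and members chosen by their calls, no test was run and no p-value is given. Widths vary between replicates, which are separate biological samples per the series' design. Counts and coverage without the Npm1c-only regions were added after the data were seen. Alternatives left out each library, used lists of equal length, wider peaks, merging over 500 bp or an overlap of at least 50%. The counting code was checked on simulated peak lists. Python 3.11.15, NumPy 2.4.6, pandas 2.3.3, SciPy 1.17.1 and matplotlib 3.10.9 were used.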

Additional observations from a re-analysis of the deposited data

How the results depend on the processing

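No paired analysis was possible because every result is a count or share with no test, and the replicate numbers only name samples. Leaving out 1 library at a time, the number of Npm1c-only regions (2465) ranged from 2466 to 5781, their median width (352 bp) from 265 to 356 bp, the share inside a gene (60.2%) from 58.7% to 62.7%, the share within 1 kb of a gene end (4.87%) from 4.78% to 6.09%, and the genes with 3 or more (139) from 139 to 502. With lists of equal length, the widest 43794 peaks of each, the median width was 450 bp and the share inside a gene 57.1%. With peaks at or above the median width of their list, the median width was 556 bp, the share near a gene end 3.83% and the genes with 3 or more 76. With peaks closer than 500 bp merged, the share inside a gene was 56.8%, the share near a gene end 2.93% and the genes with 3 or more 72. The number of regions in these settings was 2564, 1645 and 1809, and 2480 with an overlap of at least 50%. Leaving out a library loosens the rule, so the rises in counts in those settings were built in. The cause of the other shifts was not tested. Limits: with no read depth or peak height, an absent peak may be one below the caller's threshold, and most Npm1c-only peaks are narrow.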
